A study of Mus musculus with 2 samples.

Results

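The nuclear genes for the subunits of the mitochondrial respiratory chain and ATP synthase were read from total RNA of newborn mouse calf muscle. Members were the protein-coding genes whose symbols follow the Ndufa, Ndufb, Ndufc, Ndufs and Ndufv series with a number, Sdha to Sdhd, Uqcr, Cox4 to Cox8, Atp5, Cycs or Cyc1. The rule found 87 gene identifiers with 86 symbols, of 55536 annotated genes and 21888 protein-coding genes outside the mitochondrial genome. By symbol, 37 belonged to complex I, 4 to complex II, 9 to complex III, 18 to complex IV and 18 to ATP synthase, and 1 was Cycs, the cytochrome c gene. The members lay on 19 chromosomes.

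The samples formed 1 group of 2 biological replicates: the gastrocnemius of 2 male mice of the strain B6CASTF1/J, aged 4 days. This strain is a hybrid of C57BL/6J and CAST parents, and the animals carried no further allele or treatment in the labels. The input to each library was 300 ng of RNA, to which ERCC spike-ins were added. The tables held 35281187 counts in annotated genes for replicate 1 and 32301531 for replicate 2, of which the members took 384691 and 327332, or 1.09% and 1.01%. With no second group there was no test between conditions, and values are the mean ± SD of the 2 libraries (n = 2) or the value of each. A level is in TPM, a measure of abundance that divides reads by transcript length and by depth. The libraries carried the markers of the labelled tissue: the 5 skeletal muscle markers (Acta1, Ckm, Mylpf, Tnnt3 and Myh8) summed to 39909 TPM in replicate 1 and 36983 TPM in replicate 2. They differed in epidermal RNA, since 6 epidermal markers summed to 9.60 TPM in replicate 1 and 746 TPM in replicate 2. Because whole muscle was sequenced, fewer cells of a type and less RNA per cell cannot be told apart.

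The respiratory chain passes electrons from NADH (complex I) and succinate (complex II) through ubiquinone to complex III, cytochrome c and complex IV, which reduces oxygen. Complexes I, III and IV pump protons out of the mitochondrial matrix, and ATP synthase lets them back in to make ATP. Most subunits are encoded in the nucleus, a few in the mitochondrial genome, and several complex IV subunits exist as a form enriched in heart and skeletal muscle and a form found in most tissues.

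Members differ in how far their sequence allows reads to be assigned, and the genes for subunit c of ATP synthase show this best. Subunit c forms the rotating ring in the membrane, and Atp5g1, Atp5g2 and Atp5g3 each encode it behind a different import signal. The last 75 codons of the coding sequences of these 3 genes (228 nt with the stop codon) encode 1 identical peptide, yet 58 of the 228 positions differ among them, 52 of these at the third base of a codon. The first 120 nt of this stretch are shown from the GENCODE M21 transcripts, with capitals at the 29 positions where the genes are not all alike, because these bases are what tells their reads apart.
Atp5g1: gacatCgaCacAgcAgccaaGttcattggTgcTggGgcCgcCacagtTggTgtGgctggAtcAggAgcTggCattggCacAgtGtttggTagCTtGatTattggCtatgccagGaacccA
Atp5g2: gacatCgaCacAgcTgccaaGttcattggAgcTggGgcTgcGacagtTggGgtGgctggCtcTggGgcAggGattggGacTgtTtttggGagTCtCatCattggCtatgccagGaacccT
Atp5g3: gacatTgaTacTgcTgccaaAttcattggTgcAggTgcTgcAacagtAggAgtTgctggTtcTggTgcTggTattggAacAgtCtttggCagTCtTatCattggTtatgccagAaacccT

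Within their coding sequences, no such differences separate Atp5g2 and Cycs from a copy elsewhere in the genome. Gm10175, annotated as a transcribed processed pseudogene at chr7:23946646-23947290 on the minus strand (mm10), was 100% identical to Atp5g2 over 645 nt and held the whole Atp5g2 coding sequence of 441 nt with 0 mismatches. Gm10053, annotated as protein-coding at chr19:24875686-24876631 on the plus strand (mm10), was 99.9% identical to Cycs over 946 nt and held its coding sequence of 318 nt with 0 mismatches. The leading transcripts of Atp5g2 and Cycs in the alignment-based table, of 731 nt and 3123 nt, extend beyond these matches. The first 90 coding bases of Cycs, which Gm10053 holds letter for letter, are shown as a stretch whose reads fit both genes.
Cycs: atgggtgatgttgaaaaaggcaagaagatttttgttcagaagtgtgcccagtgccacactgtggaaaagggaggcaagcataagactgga

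Together the members took 4.19% of the TPM of protein-coding nuclear genes in replicate 1 and 3.92% in replicate 2 (mean 4.05% ± 0.191). By counts, which are not divided by length, the share was 1.39% ± 0.0793. The median member stood at 159 ± 10.2 TPM, against 2.43 TPM for all 21888 protein-coding nuclear genes and 10.8 TPM for the 12142 of them that reached 1 TPM in both libraries. In both libraries 84 of 87 members reached 1 TPM, 80 reached 10 TPM and 64 reached 100 TPM, a level that 571 protein-coding nuclear genes reached. The encoded proteins are small, with a median of 129 residues and a range of 52 to 727 over the 86 members with a complete coding sequence in the annotation.

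**Figure D1:**
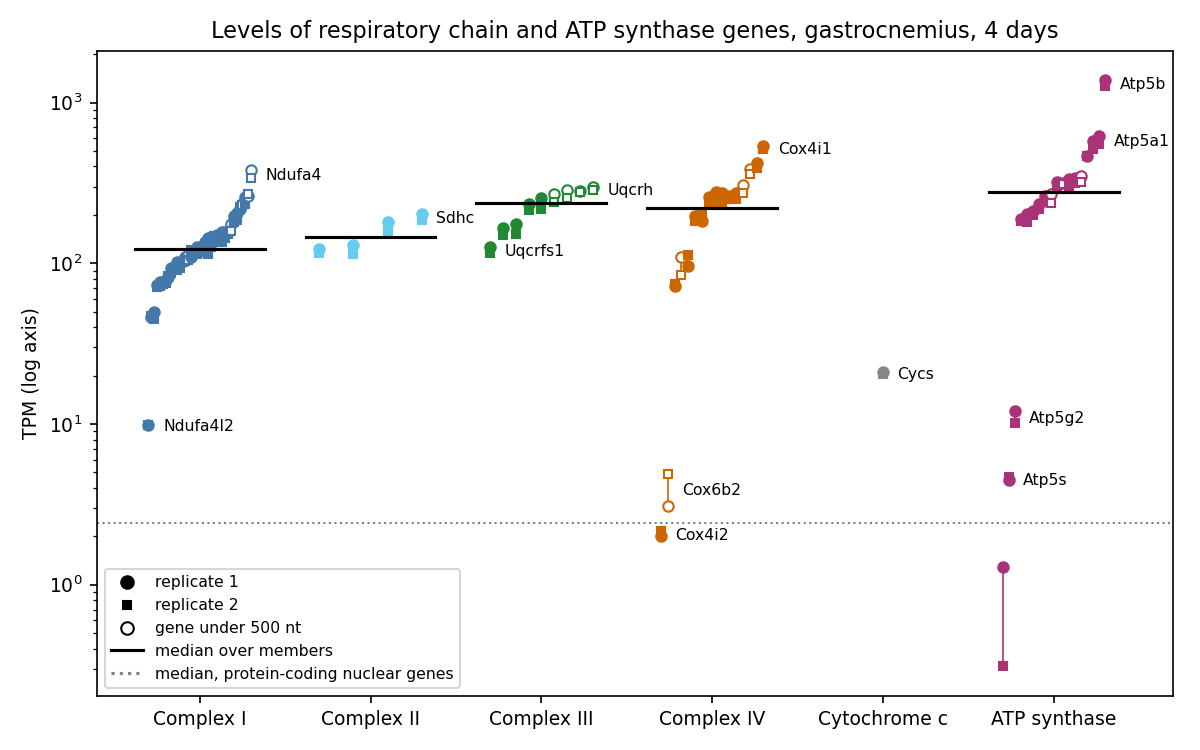
Each member is drawn as a circle (replicate 1) joined to a square (replicate 2) on a log axis of TPM, by complex, with open symbols for genes under 500 nt, black bars for the median of a complex and a dotted line for the median of protein-coding nuclear genes. Most members sit between 50 and 500 TPM, Atp5b stands highest, at 1380 and 1259 TPM, and Cox4i2, Cox6b2, Atp5s, Atp5g2 and Ndufa4l2 lie far below the other members of their complex; Cox7b2 and Cox8c, at 0, are not drawn, and the lowest, unnamed ATP synthase point is the second Atp5o identifier.

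By complex, the median member stood highest for ATP synthase, at 278 ± 18.6 TPM, followed by complex III at 237 ± 25.1 TPM and complex IV at 222 ± 7.65 TPM. ATP synthase was above complex III in each library, while complexes III and IV lay within their SDs of each other. Complex II had a median of 146 ± 12.4 TPM and complex I of 122 ± 3.09 TPM. The order of III, IV and ATP synthase rested partly on genes under 500 nt, where length correction is least certain. Without them the medians were 251 TPM for ATP synthase, 245 TPM for complex IV and 163 TPM for complex III, while complexes I and II stayed lowest at 117 and 146 TPM. In the FASTQ-based table those complexes changed places, with 216 TPM for complex I and 198 TPM for complex II.

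Complex I oxidises NADH in a peripheral arm built around nuclear core subunits. Ndufv2, an iron-sulfur subunit, had 197 and 181 TPM. Ndufs3 had 134 and 127 TPM and Ndufs7, which carries the last iron-sulfur cluster before quinone, had 135 and 120 TPM. The core subunits named here overlapped with the rest of the complex rather than standing above it. Ndufv1, the flavin-bearing subunit that takes electrons from NADH, had 143 and 114 TPM. The largest core subunit, Ndufs1, had 94.0 and 91.8 TPM, and Ndufs8, which binds iron-sulfur clusters, had 75.7 and 73.9 TPM. The median of the core subunits was 127 ± 10.9 TPM, against 119 ± 1.26 TPM for the 30 other members of complex I, a gap within the SD of the core. The FASTQ-based medians were 232 ± 19.4 TPM and 211 ± 2.89 TPM.

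The accessory subunits, which surround this core, held both ends of the range. Ndufa4, which carries a complex I name but has since been assigned to complex IV, was highest at 383 and 338 TPM. It was followed by Ndufa3 at 263 and 269 TPM and Ndufb9, an accessory subunit of the membrane arm, at 257 and 233 TPM. Ndufa3 is short (353 nt in the gene table), and in the FASTQ-based table it was at 121 and 132 TPM. The lowest were Ndufb3, another membrane arm subunit, at 46.6 and 47.2 TPM, and Ndufa4l2, a paralogue of Ndufa4 induced by hypoxia, at 9.84 and 9.89 TPM. Ndufb4, at 49.6 and 45.3 TPM, was the next lowest, and it is one of the members with a copy that takes reads.

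Complex II, succinate dehydrogenase, is encoded by nuclear genes alone and links the citric acid cycle to the chain. Sdhc, a membrane anchor, had 202 and 185 TPM, and Sdha, the flavoprotein that oxidises succinate, had 179 and 159 TPM. The other anchor, Sdhd, had 130 and 114 TPM, and the iron-sulfur subunit Sdhb had 122 and 116 TPM. The libraries of Sdhd and Sdhb overlapped, and both genes lay below Sdha and Sdhc in each library of this table. The FASTQ-based table gave another order: Sdha had 250 and 239 TPM, Sdhb 221 and 216 TPM, Sdhc 182 and 169 TPM and Sdhd 187 and 166 TPM. Sdha thus led there, and Sdhc lay below Sdhb.

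In complex III the 4 members under 500 nt were the most abundant in the alignment-based table. Uqcrh, the hinge protein next to cytochrome c1, had 300 and 285 TPM, Uqcrq had 283 and 279 TPM, and Uqcr10 had 284 and 254 TPM. Each of these is under 500 nt, as is Uqcr11 at 268 and 240 TPM. The redox subunits were lowest in this table: Cyc1, the haem protein cytochrome c1, had 166 and 150 TPM, and Uqcrfs1, the Rieske iron-sulfur protein, had 127 and 117 TPM. In the FASTQ-based table Uqcrfs1 was again lowest, at 192 and 178 TPM, but Cyc1, at 427 and 388 TPM, was above both core proteins. The structural core protein Uqcrc1 had 254 and 219 TPM, above its partner Uqcrc2 at 175 and 152 TPM in both libraries.

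Complex IV, cytochrome c oxidase, was led by Cox4i1, the general form of its largest nuclear subunit, with 538 and 511 TPM. Cox6b1, at the cytochrome c side of the enzyme, followed with 421 and 389 TPM, and Cox5b, on the matrix side, with 387 and 361 TPM. This order held in the alignment-based table only. In the FASTQ-based table Cox7c led with 1036 and 1033 TPM, followed by Cox4i1 with 913 and 894 TPM, and Cox6c, Cox7b and Cox7a2 were above Cox6b1 and Cox5b. Cox7b2 and Cox8c had 0 counts in both libraries and in both quantifications. A count of 0 allows up to 0.231 and 0.248 TPM for Cox7b2 and 0.286 and 0.307 TPM for Cox8c, counting error only. Cox7b2 was therefore at least 972-fold lower than Cox7b, and Cox8c at least 640-fold lower than Cox8a, with 3 counts as the limit in each library. Both genes, like Cox6b2, are known from testis, and the 5 testis germ cell markers (Prm1, Prm2, Tnp1, Tnp2 and Ldhc) were also at 0 counts.

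ATP synthase held the member with the highest level. Atp5b, the catalytic beta subunit, had 1380 and 1259 TPM, and Atp5a1, the alpha subunit, had 619 and 555 TPM. Beta and alpha occur in several copies per enzyme, unlike the gamma, delta and epsilon subunits of the same catalytic head. Atp5e (epsilon) had 314 and 310 TPM, Atp5c1 (gamma) 233 and 217 TPM, and Atp5d (delta) 213 and 198 TPM. In each library of this table beta and alpha were thus above the single-copy head subunits. In the FASTQ-based table alpha and epsilon nearly met in replicate 2. Atp5a1 had 1047 and 933 TPM there, against 926 and 924 TPM for Atp5e, a gene under 500 nt. Atp5o, the stalk subunit that confers oligomycin sensitivity, had 466 and 462 TPM. The lowest were Atp5s, an ATP synthase-related gene, at 4.47 and 4.66 TPM, and a second identifier under the symbol Atp5o, at 1.28 and 0.310 TPM. That second identifier held 16.1 and 3.58 counts, overlaps the first in name and chromosome, and fell under the filter of a mean count of 100, as did Cox4i2, Cox6b2, Cox7b2 and Cox8c, so 82 of 87 members passed it.

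Muscle and general forms of complex IV subunits were set against each other as log2 ratios of TPM plus 0.1. Cox6a2, the heart and muscle form of subunit 6A, had 276 and 232 TPM, against 96.0 and 113 TPM for the general form Cox6a1. The log2 ratio was 1.52 in replicate 1 and 1.04 in replicate 2 (mean 1.28 ± 0.34), so the muscle form made up 70.8% ± 4.87 of the pair. Cox8b, the muscle form of subunit 8, had 307 and 274 TPM, against 183 and 201 TPM for Cox8a, a log2 ratio of 0.60 ± 0.21. For subunit 7A the order was the other way: the muscle form Cox7a1 had 109 and 84.0 TPM, against 196 and 182 TPM for the general form Cox7a2. The log2 ratio was -0.98 ± 0.19 and the muscle form was 33.7% ± 3.01 of the pair. In each of these pairs the libraries of the forms did not overlap, and the muscle form took a smaller part in replicate 2. The 3 changes of log2 ratio, replicate 2 minus replicate 1, were -0.48 for Cox6a2 over Cox6a1, -0.27 for Cox7a1 over Cox7a2 and -0.30 for Cox8b over Cox8a.

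**Figure D2:**
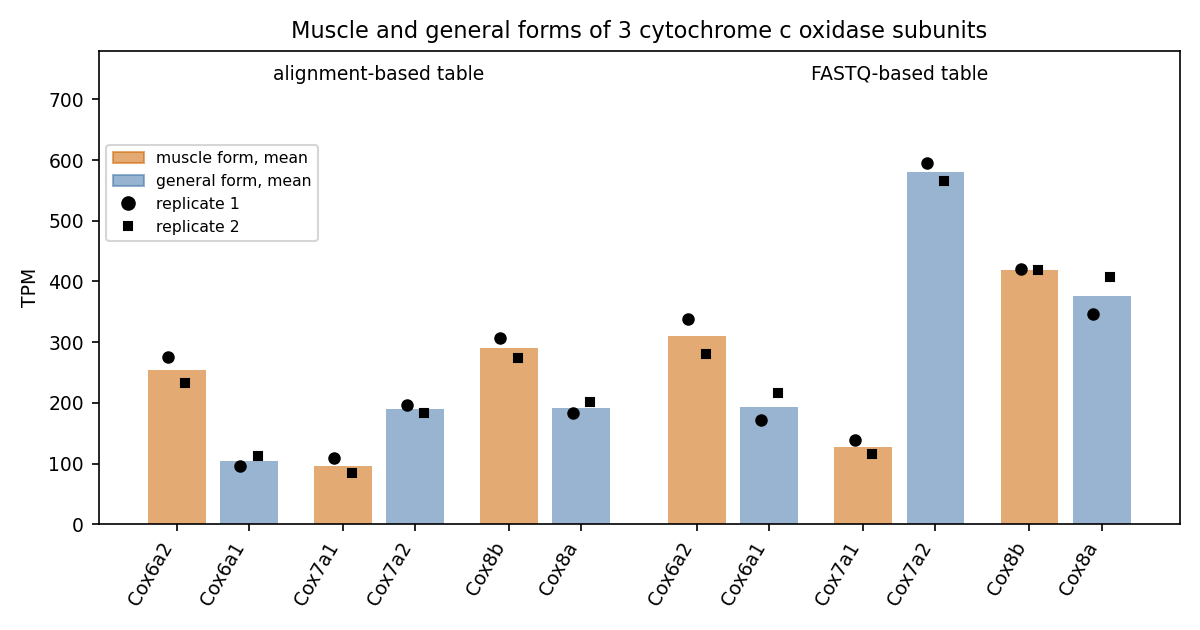
Bars give the mean TPM of the muscle form (orange) and the general form (blue) of subunits 6A, 7A and 8, with replicate 1 as circles and replicate 2 as squares, in the alignment-based table on the left and the FASTQ-based table on the right. Cox6a2 stands above Cox6a1 and Cox7a1 below Cox7a2 in both tables, whereas Cox8b and Cox8a nearly meet in replicate 2 of the FASTQ-based table.

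The quantification changed the size of these ratios. With the FASTQ-based table the log2 ratio was 0.68 for Cox6a2 over Cox6a1, -2.19 for Cox7a1 over Cox7a2 and 0.16 for Cox8b over Cox8a. These gene levels include transcripts not annotated as protein-coding. A retained intron transcript held 85.1% of the TPM of Cox6a1 there, and a processed transcript 59.8% of that of Cox7a2. Cox6a2, Cox7a1, Cox8a and Cox8b were led by protein-coding transcripts. By counts not divided by length, Cox8b lay below Cox8a, with a log2 ratio of -0.19. Cox8b (360 nt) and Cox7a1 (396 nt) are among the members under 500 nt. Cox8b and Cox7a1 are also expressed in brown fat, whose defining gene Ucp1 was at 0.330 and 0.690 TPM, and the 6 brown adipocyte markers together summed to 24.5 TPM in replicate 1 and 44.5 TPM in replicate 2. Most of these sums was Adipoq, a gene of fat cells in general, with 14.6 and 32.9 TPM. The muscle forms are shared with heart, where Nppa was at 0 counts in both libraries and Myl7 at 1 and 0 counts; of the 5 heart markers Myh6 held nearly all of the sum, with 48.2 and 60.4 TPM. The part of these cell types in the ratios was not tested.

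Other forms were set beside their common partner in the same way. Cox4i2, a form of subunit 4 known from lung, had 2.01 and 2.16 TPM, against 538 and 511 TPM for Cox4i1, a log2 ratio of -7.91 ± 0.12. Cox6b2 had 3.08 and 4.87 TPM, against 421 and 389 TPM for Cox6b1, a log2 ratio of -6.67 ± 0.54. Ndufa4l2 lay below Ndufa4 by a log2 ratio of -5.17 ± 0.13. Cox7a2l, a related protein linked to supercomplexes of complexes III and IV, had 72.0 and 74.2 TPM. Its log2 ratio to Cox7a2 was -1.37 ± 0.11, or 27.9% ± 1.46 of the pair. By counts not divided by length that ratio was -0.43. Ndufa4l2 is known from pericytes, and the 5 pericyte markers summed to 144 and 132 TPM. The markers were uneven: Rgs5 had 58.1 and 53.0 TPM, Abcc9 47.5 and 42.7 TPM and Notch3 28.1 and 26.4 TPM. Kcnj8 had 8.65 and 8.96 TPM, and Higd1b only 1.34 and 0.64 TPM. The part of pericytes in the level of Ndufa4l2 was not tested.

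The forms of a pair were far apart in coding sequence, so their reads were not alike. The coding sequences of Cox6a2 and Cox6a1 were 64.8% identical, those of Cox7a1 and Cox7a2 65.8%, and those of Cox8b and Cox8a 54.9%. Their promoters differed too. RefSeq (GRCm38.p6) gave the 250 nt before and 50 nt after the start of transcription for 69 of the 86 symbols and for 17492 protein-coding genes in all; Cox6a2 was not among them. The promoters of muscle and general forms are shown, each 300 nt, because they differ in their content of CpG, the dinucleotide that is dense in most promoters of broadly expressed genes. Capitals mark matches on either strand to the letters of NRF1 (GCGCA, any base, then GCGC), of ETS/GABP (CCGGAAG), of the E-box (CANNTG) and of a TATA box (the letters TATAAA).
Cox7a1 (chr7:30183921-30184220, plus strand): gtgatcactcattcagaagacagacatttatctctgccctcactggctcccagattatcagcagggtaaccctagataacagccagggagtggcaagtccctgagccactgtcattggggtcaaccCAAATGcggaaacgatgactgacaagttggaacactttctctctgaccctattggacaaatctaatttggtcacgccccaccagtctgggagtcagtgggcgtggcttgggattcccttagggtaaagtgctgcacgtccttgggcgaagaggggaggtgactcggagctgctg
Cox7a2 (chr9:79759804-79760103, minus strand): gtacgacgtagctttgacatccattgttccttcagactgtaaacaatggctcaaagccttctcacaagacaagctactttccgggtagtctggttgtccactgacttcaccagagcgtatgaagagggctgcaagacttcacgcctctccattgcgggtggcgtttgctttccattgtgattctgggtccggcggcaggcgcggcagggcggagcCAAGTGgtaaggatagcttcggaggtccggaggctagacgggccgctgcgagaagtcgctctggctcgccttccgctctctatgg
Cox8b (chr7:140900397-140900696, minus strand): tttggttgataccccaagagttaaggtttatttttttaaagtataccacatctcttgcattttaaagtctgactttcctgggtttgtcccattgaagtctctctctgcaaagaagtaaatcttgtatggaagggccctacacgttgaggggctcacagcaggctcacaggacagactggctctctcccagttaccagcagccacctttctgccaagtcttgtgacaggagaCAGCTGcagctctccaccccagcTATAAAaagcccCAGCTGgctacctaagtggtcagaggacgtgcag
Cox8a (chr19:7217567-7217866, minus strand): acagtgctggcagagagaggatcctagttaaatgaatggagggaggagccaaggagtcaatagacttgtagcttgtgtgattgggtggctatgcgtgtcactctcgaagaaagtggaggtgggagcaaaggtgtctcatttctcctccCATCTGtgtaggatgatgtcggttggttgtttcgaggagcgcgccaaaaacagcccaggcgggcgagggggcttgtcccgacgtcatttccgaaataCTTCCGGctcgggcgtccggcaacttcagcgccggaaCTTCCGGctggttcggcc
Cox6a1 (chr5:115348909-115349208, minus strand): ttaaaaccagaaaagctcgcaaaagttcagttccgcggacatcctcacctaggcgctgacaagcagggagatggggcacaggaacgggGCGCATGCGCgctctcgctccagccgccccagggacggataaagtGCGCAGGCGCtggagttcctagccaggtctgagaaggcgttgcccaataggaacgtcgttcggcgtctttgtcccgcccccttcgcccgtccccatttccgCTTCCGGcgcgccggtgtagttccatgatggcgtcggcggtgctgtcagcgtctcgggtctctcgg

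The promoters of the muscle forms Cox7a1 and Cox8b held 7 and 2 CpG, against 20 and 19 in those of the general forms Cox7a2 and Cox8a. Cox6a1 held 32 CpG, while the median was 19 over members and 15 over all promoters. Cox8b had a TATA match and 2 E-box matches, and Cox6a1 had 2 NRF1 matches and 1 ETS/GABP match. These are matches of letters in a fixed window, not sites shown to be bound.

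Across the members with a promoter entry, NRF1 letters were present in 17 of 69 (24.6%), against 7.17% of all 17492. NRF1 is a transcription factor long known from promoters of respiratory chain genes. ETS/GABP letters were present in 16 of 69 (23.2%), against 12.9% of all. YY1 letters (AAGATGGCG) were present in 7 (10.1%), against 2.14%, and ERR letters (AAGGTCA), which oestrogen-related receptors bind, in 8 (11.6%), against 4.73%. Other letters stood near the background: CCAAT in 44.9% against 42.3%, the SP1 letters GGGCGG in 42.0% against 49.2%, TATAAA in 10.1% against 14.8%, and CANNTG in 71.0% against 72.1%. Both strands were searched. CCGGAAG and AAGATGGCG can each overlap neighbouring matches of other letters. Among the NRF1 matches were Sdha, Sdhd, Uqcrc1, Atp5o, Atp5g2 and Atp5g3, and Sdhd held NRF1, ETS/GABP and ERR letters together.

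The genes for subunit c gave different pictures in the 2 quantifications. In the FASTQ-based table Atp5g3 made up 51.6% ± 0.890 of the TPM of the 3 genes, Atp5g2 25.5% ± 0.863 and Atp5g1 22.9% ± 0.0270. In the alignment-based table the shares were 61.7% ± 0.748 for Atp5g3, 1.25% ± 0.0624 for Atp5g2 and 37.1% ± 0.810 for Atp5g1. Atp5g3 led in both. Atp5g2 had 3997 and 3594 counts in the FASTQ-based table, against 221 and 172 counts in the alignment-based table. The copy Gm10175 showed the reverse, with under 0.01 counts in replicate 1 and 0 in replicate 2 of the FASTQ-based table, against 4411 and 4068 counts in the alignment-based table. The level of Atp5g2 is therefore not settled by these tables. It was 469 and 461 TPM in the FASTQ-based table and 12.04 and 10.12 TPM in the alignment-based table. With its copies added, it was 288 and 283 TPM in the latter. The TPM scales of the tables also differ. Protein-coding nuclear genes summed to 725987 and 739019 TPM in the FASTQ-based table, against 418777 and 416198 TPM in the alignment-based table. By these sums, the gap between 469 and 288 TPM was no larger than the difference in scale.

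Cycs, the mobile carrier between complexes III and IV, behaved likewise. It had 3409 and 3014 counts in the FASTQ-based table, against 1672 and 1534 in the alignment-based table. Gm10053 had 1480 and 1239 counts in the FASTQ-based table, against 2752 and 2269 in the alignment-based table. A shorter processed pseudogene copy, Gm10108, took 0 counts in the FASTQ-based table, against 496 and 469 in the alignment-based table. In TPM, Cycs stood at 333 and 313 in the FASTQ-based table and at 21.1 and 20.5 in the alignment-based table. With its 3 copies added, the latter became 209 and 197, on the lower TPM scale of that table. Its length also differed in use: the gene table gave 2821 nt, while the leading transcript in the FASTQ-based table, with 91.8% of the TPM, was one annotated as a retained intron.

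Altogether 15 members had 23 copies at another locus (97% identity or more over at least 200 nt and 80% of the copy), and 21 of the copies were annotated as pseudogenes. The copies summed to 2189 and 1903 counts in the FASTQ-based table, against 13166 and 11771 counts in the alignment-based table, and 13 of them reached a mean of 100 counts in the latter table. Ndufb4 had 625 and 563 counts there beside 962 and 929 for Ndufb4c, a copy 100% identical over 390 nt. Atp5l, subunit g, had 3567 and 3070 counts beside 1224 and 1093 for Gm10221. Atp5h, subunit d of the stalk, had 4553 and 3848 counts beside 959 and 777 for Gm10250, and Cox7c had 3439 and 2972 beside 511 and 494 for Gm10012. All these copies had at most 1.17 counts per library in the FASTQ-based table. Whether the copies are transcribed was not tested, and for the 15 members the alignment-based level is uncertain to the extent of the copies' counts.

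**Figure D3:**
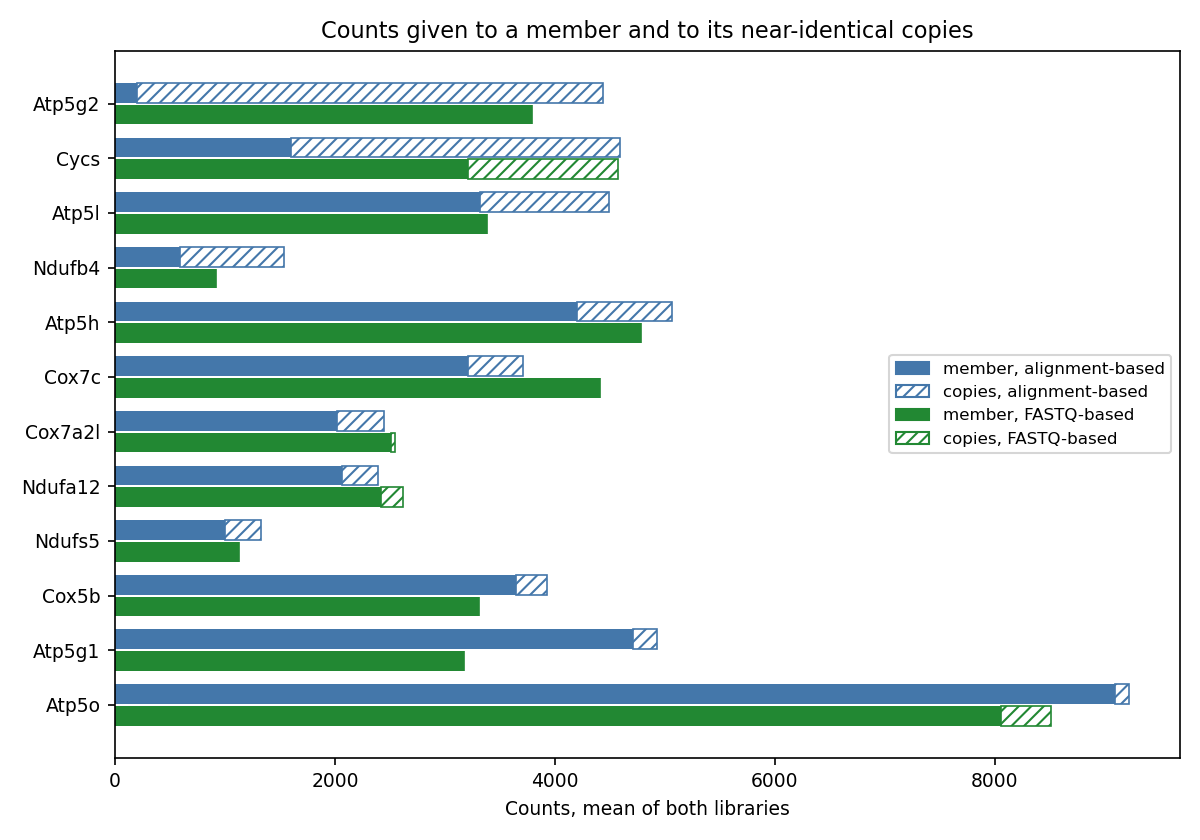
For each of the 12 members whose copies reached a mean of 100 counts, stacked bars give the counts of the member (solid) and of its copies (hatched) as the mean of both libraries, blue for the alignment-based and green for the FASTQ-based table. Most counts of the Atp5g2 and Cycs families lie in the hatched part of the blue bars, while the green bars are visibly hatched only for Cycs, Cox7a2l, Ndufa12 and Atp5o.

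Across the 82 members past the filter, the TPM of the FASTQ-based over the alignment-based table had a median of 1.80, with a range of 0.475 to 42.0. The median over 11696 protein-coding nuclear genes was 1.60. The ratio passed 3-fold for 5 members, Atp5g2, Cycs, Ndufb4, Cox7c and Cox7a2. Of all 12421 genes past the filter 2.79% did so, and of the protein-coding nuclear genes 1.07%. Ndufb4 had 216 TPM in both libraries of the FASTQ-based table, against 49.6 and 45.3 TPM in the alignment-based table. Cox7c had 1036 and 1033 TPM, against 272 and 252 TPM, and Cox7a2 had 594 and 565 TPM, against 196 and 182 TPM. Of these, Cox7a2 had no such copy, and its leading transcript differed between the tables. Its counts were close, at 2837 and 2431 in the FASTQ-based table, against 2958 and 2484 in the alignment-based table. The 3-fold limit was set on TPM without correction for the difference in scale.

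By counts instead of TPM, the median ratio over the 82 members was below 1, at 0.927. In TPM the members under 500 nt were above 1 as well, at a median of 1.44. For the 15 members under 500 nt past the filter, the FASTQ-based count was a median of 0.774 of the alignment-based count, and for 7 of 15 it was below 0.667. Among all 100 protein-coding nuclear genes under 500 nt 52.0% were below that value, close to the share among the members. For members of 500 nt or more the median was 0.968, and 7 of 67 (10.4%) were below 0.667. Of all protein-coding nuclear genes of 500 nt or more, 0.828% were below it. The 7 members were 511 to 697 nt long, and genes of like length were not compared, so this gap may not be particular to the members. Ndufa1, an essential small subunit of the complex I membrane arm, had 238 and 259 counts in the FASTQ-based table, against 1050 and 919 in the alignment-based table. Cox8b had 824 and 729 counts in the FASTQ-based table, against 2348 and 1947, and Ndufa2, just over the length limit at 572 nt, had 721 and 602, against 1660 and 1467.

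**Figure D4:**
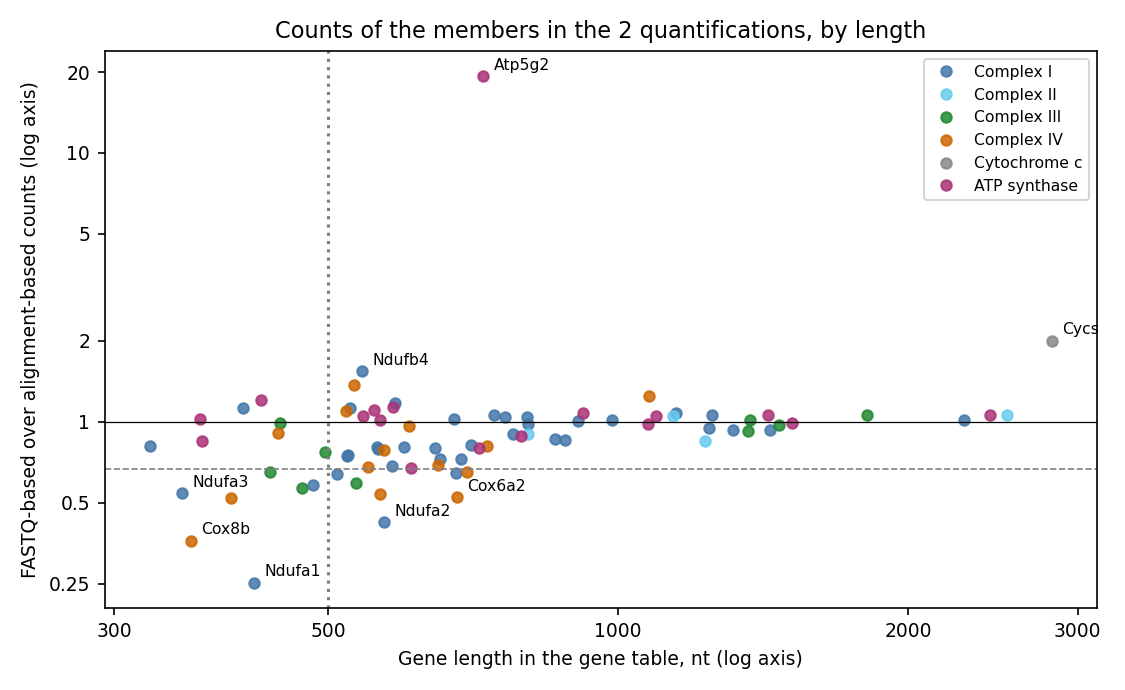
Each point is a member past the count filter, with its gene length on the x axis (log) and its FASTQ-based over alignment-based counts on the y axis (log); the dotted line marks 500 nt, the solid line a ratio of 1 and the dashed line 0.667. Points below 0.667 lie among the shorter genes, down to 0.252 for Ndufa1, and Atp5g2 stands alone at 19.3.

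The transcript tables gave 393 transcripts for the members. In the alignment-based table the leading transcript held 90% or more of the gene in 44 of the 85 members with counts, under 50% in 5, and a median of 91.5%. It was not annotated as protein-coding in 10 members, and in 18 by the FASTQ-based table. Ndufa3 was led at 93.2% and 93.6% by a transcript annotated for nonsense-mediated decay, and Cox7b, a small complex IV subunit on the X chromosome, at 61.2% and 66.7% by one with a retained intron. Both tables named the same leading transcript for 55 members and different ones for 30. Cox6a1 was led by its protein-coding transcript at 99.3% and 100% in the alignment-based table, yet by a retained intron transcript with 85.1% in the FASTQ-based table.

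Complexes I, III, IV and ATP synthase also have subunits from the mitochondrial genome, whose 13 protein-coding genes ranged from 60.4 TPM for mt-Co2 to 7008 TPM for mt-Co1. Several of these levels differed widely between the quantifications. In the FASTQ-based table mt-Co2 had 1101 and 804 TPM and mt-Atp6 11302 and 9374 TPM, while mt-Atp8 was listed at 0 and mt-Nd4l and mt-Nd3 were under 5 TPM. In the alignment-based table mt-Atp6 had 2527 and 2181 TPM, mt-Atp8 3395 and 2616 TPM, mt-Nd4l 2200 and 2000 TPM and mt-Nd3 1505 and 1533 TPM. The sums that follow are of the alignment-based table. The members of complex I summed to 4921 ± 181 TPM, against 12828 ± 383 TPM for 7 mitochondrial genes, a ratio of 0.384. For complex III the sums were 2001 ± 126 TPM, against 3762 ± 144 TPM for mt-Cytb alone, a ratio of 0.532. For complex IV they were 3533 ± 174 TPM, against 8026 ± 337 TPM, a ratio of 0.440, and mt-Co1 gave most of the mitochondrial sum. For ATP synthase they were 5838 ± 345 TPM, against 5359 ± 795 TPM for mt-Atp6 and mt-Atp8, a ratio of 1.10 ± 0.0984. The mitochondrial transcripts thus outweighed the nuclear ones by TPM except for ATP synthase, where the sums lay within their SD. The FASTQ-based ratios were 0.595 for complex I, over 1.5 times higher, 0.597 for complex III, 0.443 for complex IV and 1.08 for ATP synthase.

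Assembly factors help build the complexes without staying in them. All 45 on the list reached 1 TPM in both libraries, 28 of them 10 TPM and 0 of them 100 TPM. Their median was 12.9 ± 0.170 TPM, far below that of the members. The most abundant were Uqcc2 of complex III at 93.9 and 96.3 TPM, Cox14 of complex IV at 50.9 and 49.2 TPM, and Cox17, a copper chaperone, at 44.4 and 42.3 TPM. The lowest were Nubpl, which delivers iron-sulfur clusters to complex I, at 1.74 and 1.68 TPM, and Sdhaf3 of complex II at 1.62 and 1.59 TPM. Of 6 related genes that the symbol rule missed, Usmg5, a small ATP synthase subunit, had 352 and 371 TPM, and Ndufab1, the mitochondrial acyl carrier protein in complex I, had 228 and 199 TPM. Atpif1, the ATP synthase inhibitor, had 88.9 and 96.3 TPM, and Higd2a and Higd1a, associated with complex IV, had 43.0 and 38.4 TPM and 27.3 and 24.8 TPM. Cyct, the testis form of cytochrome c, had 0 counts in both libraries.

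Between the animals, the members moved by small amounts and mostly one way. The log2 ratio of replicate 2 over replicate 1, on counts with TMM scaling from edgeR, had a median of -0.13 over the 82 members, against -0.01 over all 12421 genes. It was below 0 for 74 members and above 0 for 8, and 52.2% of all genes were below 0. None of the 82 members passed 1.5-fold, nor did any with DESeq2 size factors, library totals or the FASTQ-based counts, whereas 3.99% of all genes passed it, 3.13% as higher and 0.853% as lower in replicate 2. Counting intervals (95%, exact) lay below 0 for 56 members and above 0 for 3, and held 0 for 23. With 1 library per animal these intervals cover counting error, not the spread between animals. The share of all genes with an interval below 0 was not computed, so the 56 members have no background to be read against.

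The medians were -0.15 for ATP synthase, with 17 of 17 members below 0, -0.18 for complexes II and III, with 4 of 4 and 9 of 9 below 0, -0.14 for complex IV and -0.11 for complex I. Under library totals the median of the members was -0.08 with 70 of 82 below 0, and with DESeq2 size factors it was -0.15 with 77 of 82. The FASTQ-based counts gave 73 of 82. The share of all genes below 0 was computed only for the alignment-based counts with TMM scaling. It shifts with the scaling, so the other settings have no like background. Under library totals alone Atp5e, Cycs and Ndufc1 lay above 0 by less than 0.01. The extremes were both in complex IV. Cox7a1 had 950 and 682 counts, a log2 ratio of -0.40 (interval -0.54 to -0.25), and Cox6a1 had 1327 and 1448 counts, a log2 ratio of 0.21 (0.10 to 0.32). The muscle forms Cox7a1, Cox6a2 and Cox8b were at -0.40, -0.27 and -0.19, against -0.17, 0.21 and 0.12 for the general forms Cox7a2, Cox6a1 and Cox8a. Outside complex IV the lowest was Ndufv1, at 4729 and 3587 counts and -0.32, and the highest was Ndufs4, a subunit needed for complex I assembly, at 0.11.

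**Figure D5:**
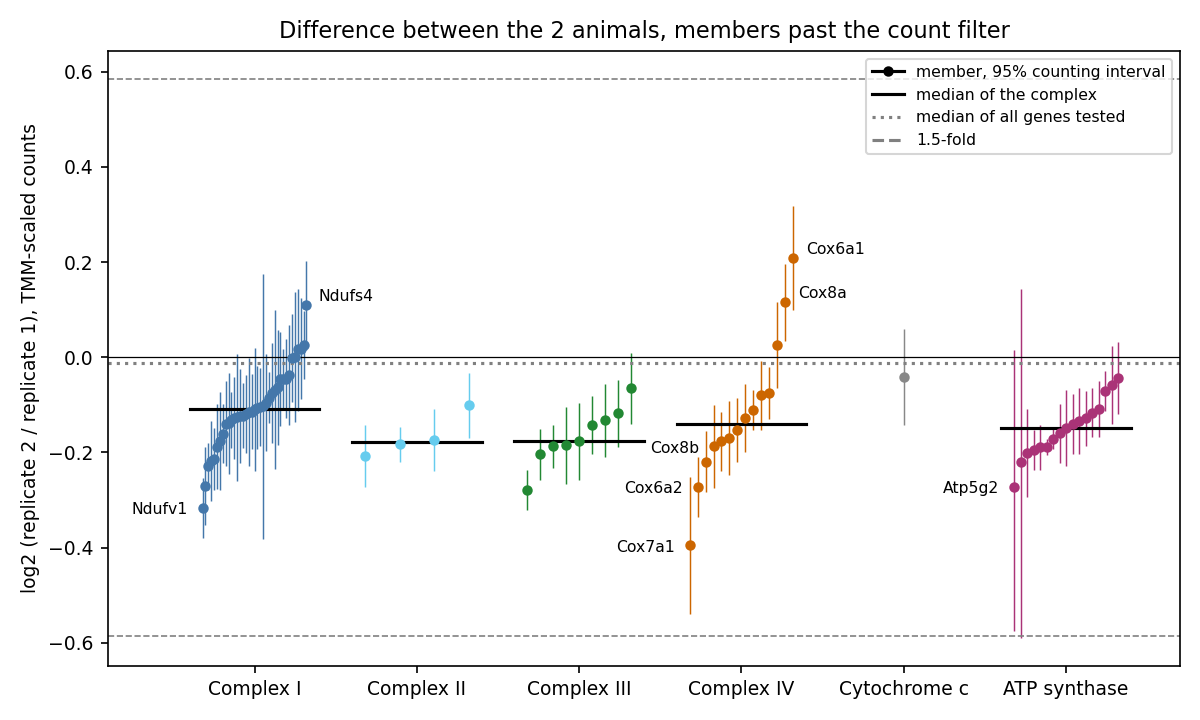
Each point is a member past the count filter with its log2 ratio of replicate 2 over replicate 1 and its exact 95% counting interval, by complex; black bars are medians, the dotted line is the median of all genes tested and the dashed lines mark 1.5-fold. The points stay inside the dashed lines, most lie below 0, and Cox7a1 and Cox6a1 are the lowest and highest.

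Other lists differed between the libraries as well. The 5 skeletal muscle markers had a median log2 ratio of -0.14, with 5 of 5 below 0, and the 45 assembly factors, 44 of which passed the filter, a median of -0.08 with 28 below 0. The 13 mitochondrially encoded genes had a median of -0.10 with 10 below 0. The 5 erythroid markers past the filter were at 0.25, with 5 of 5 above 0, and the 6 epidermal markers at 8.70, with 6 of 6 above 0. The epidermal markers took 0.000541% of the protein-coding nuclear counts in replicate 1 and 0.161% in replicate 2. The part of these other cell types in the lower member levels of replicate 2 was not tested.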

How the data were processed

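Total RNA-seq of 2 gastrocnemius samples was analysed. The build is mm10 with GENCODE M21, per the deposited notes; aligner and quantifier names were not given in the sources. The authors' gene tables hold expected counts and TPM, and their transcript tables add each transcript's percent of the gene, per the file headers. A second deposited transcript table, made from FASTQ files, holds estimated counts and TPM, summed here per gene. The gene tables' posterior standard deviation of the count, which the authors deposited, exceeded 1 count for 18 members. Strand use in counting is not stated, so overlapping and antisense genes are uncertain. Entries without a gene name held 4 and 6 counts and were left out.

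Levels are alignment-based TPM unless stated; log2 ratios of pairs used a pseudocount of 0.1, which understates ratios of low genes. Ratios between libraries used edgeR 4.0.16 (R 4.3.3) scaling (TMM, the trimmed mean of M-values), genes past a mean count of 100, a prior count of 0.5 and rounding only for scaling; this step was tested on simulated data. Copies were found with blastn 2.17.0. Limits of a count of 0 are 3 counts; these and intervals cover counting error only. With 1 library per animal, effects of animal and of preparation cannot be told apart. Members named in full were fixed by rule: pairs, subunit c genes, complex I core, complex II, the 3 highest and 2 lowest of each complex, and those past 1.5-fold between libraries or 3-fold between quantifications. For 1 member under this rule, values are not reported here. The members and lists were chosen with earlier results of these data known. Alternatives were DESeq2 1.42.0 size factors, library totals, other filters, lengths, pseudocounts and quantification, and each library alone.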

Additional observations from a re-analysis of the deposited data

How the results depend on the processing

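No paired analysis was possible because there was only 1 group. Using either library alone turned no direction; with 2 libraries each value lies within 1 SD of the mean by construction. With the FASTQ-based table the members' share was 4.27%, and the medians were 216 TPM for complex I, 198 for II, 403 for III, 395 for IV and 512 for ATP synthase, so that complexes I and II changed places; the log2 ratios were 0.68 for Cox6a2 over Cox6a1, -2.19 for Cox7a1 over Cox7a2 and 0.16 for Cox8b over Cox8a. Without members under 500 nt the share was 3.12%, and the medians were 117 TPM for complex I, 163 for III, 245 for IV and 251 for ATP synthase. Rescaled to protein-coding nuclear genes the medians were 292, 350, 567, 531 and 667 TPM for complexes I to IV and ATP synthase. Counting Ndufa4 with complex IV put its median at 245 TPM. Counts not divided by length gave -1.75 for Cox7a1 over Cox7a2 and -0.19, the opposite sign, for Cox8b over Cox8a; this setting drops the length correction, and Cox8b is shorter than Cox8a. Adding the copies, an alternative chosen after seeing the data, gave a share of 4.32% and medians of 129 TPM for complex I and 315 for ATP synthase. With no filter on low counts 1 member passed 1.5-fold between the libraries, the second Atp5o identifier with 16.1 and 3.58 counts. Where no construction is named, the cause was not tested. Depth limits Cox4i2, Cox6b2 and the second Atp5o, with under 50 counts per library.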

Other observations

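A further 12 genes matched the symbol rule without being annotated as protein-coding, 11 as processed pseudogenes and 1 as a bidirectional promoter lncRNA. The lncRNA entry, Ndufb1-ps, carries the name of the complex I subunit Ndufb1. It held 61.0 and 51.0 TPM, from 786 and 611 counts, and 852 and 680 counts in the FASTQ-based table. Its level lies among those of the lower annotated complex I members, above Ndufb4 and Ndufb3. Ndufb4c was the only one of the 11 pseudogenes with more than 10 counts, at 962 and 929 in the alignment-based table and 0 in the FASTQ-based table, and 4 of the 12 had no count in either library.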
